A study of Mus musculus with 12 samples.

Results

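Slc20a1 (Entrez gene 20515, also called Glvr1) encodes PiT1, a sodium-dependent carrier of inorganic phosphate in the cell membrane. It was measured in osteoblast-like cells kept static or exposed to fluid flow. The members were all probes whose single gene symbol was Slc20a1 in the annotation of the array. There were 3 such probes, numbered 3376, 11614 and 21091, among 28704 features. The gene was chosen by its measured shear minus control difference in these same 12 samples, so that change is given as a description, with no p and no call. The annotation named 10225 genes in all.

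The cells were of the MC3T3-E1 line, derived from mouse skull bone. RNA was measured in 6 control samples, kept static in the flow apparatus, and in 6 shear samples. Shear cells lay in pulsatile flow (1 Hz) for 5 h, and the stress on them averaged 5 dyn/cm2. Both groups were confluent monolayers on glass, grown with 5% serum and then held in medium with 1% serum at 37 °C. Nothing in the labels says that the replicates came from separate cultures, so the spread between them may be technical.

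PiT1 uses the inward sodium gradient to bring phosphate into the cell. With PiT2, the product of Slc20a2, it forms the SLC20 family, which is expressed in most tissues and also serves gamma retroviruses as an entry receptor. In bone, osteoblasts and chondrocytes need phosphate uptake for the mineral that they lay down in the matrix, and PiT1 is a much studied phosphate carrier of these cells.

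In the mouse reference GRCm38.p6, Slc20a1 lies on chromosome 2 from base 129198773 to 129211615. RefSeq gave 2 promoter windows for it, each of 300 bases with 250 of them before an annotated start. They are shown with windows of Slc2a1, Slc7a1 and Slc16a1. These were the solute carrier genes called higher under shear, apart from Slc20a1, for which no call is given. A second Slc7a1 window, with TATAAA at -28, is not printed. Capitals mark matches, on either strand, to any of 9 short motifs.
Slc20a1 window 1, chr2:129198523-129198822, plus strand: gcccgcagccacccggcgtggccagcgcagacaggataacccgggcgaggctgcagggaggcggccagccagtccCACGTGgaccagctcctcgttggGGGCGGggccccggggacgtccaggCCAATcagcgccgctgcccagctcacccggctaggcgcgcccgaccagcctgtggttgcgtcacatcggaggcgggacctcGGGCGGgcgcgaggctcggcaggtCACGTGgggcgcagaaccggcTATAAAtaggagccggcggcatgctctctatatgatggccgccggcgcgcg
Slc20a1 window 2, chr2:129206846-129207145, plus strand: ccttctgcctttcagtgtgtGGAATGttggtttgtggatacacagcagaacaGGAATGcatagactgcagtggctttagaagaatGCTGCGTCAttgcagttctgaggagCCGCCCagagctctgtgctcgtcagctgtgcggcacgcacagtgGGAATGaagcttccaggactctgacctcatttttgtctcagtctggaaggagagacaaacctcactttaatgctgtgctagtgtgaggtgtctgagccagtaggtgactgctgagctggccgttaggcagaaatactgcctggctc
Slc2a1, chr4:119108495-119108794, plus strand: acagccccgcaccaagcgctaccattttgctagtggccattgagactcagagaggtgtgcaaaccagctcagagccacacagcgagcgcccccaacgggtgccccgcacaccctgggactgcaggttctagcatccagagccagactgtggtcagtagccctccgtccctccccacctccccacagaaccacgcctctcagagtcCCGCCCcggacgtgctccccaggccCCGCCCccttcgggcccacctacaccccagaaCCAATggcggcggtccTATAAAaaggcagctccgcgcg
Slc7a1 window 1, chr5:148399855-148400154, minus strand: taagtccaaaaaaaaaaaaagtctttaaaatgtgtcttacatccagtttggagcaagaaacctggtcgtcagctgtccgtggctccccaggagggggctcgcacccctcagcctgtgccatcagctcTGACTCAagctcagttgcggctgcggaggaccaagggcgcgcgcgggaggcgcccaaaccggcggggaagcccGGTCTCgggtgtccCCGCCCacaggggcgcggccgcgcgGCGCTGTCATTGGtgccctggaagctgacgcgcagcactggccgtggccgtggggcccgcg
Slc16a1, chr3:104638414-104638713, plus strand: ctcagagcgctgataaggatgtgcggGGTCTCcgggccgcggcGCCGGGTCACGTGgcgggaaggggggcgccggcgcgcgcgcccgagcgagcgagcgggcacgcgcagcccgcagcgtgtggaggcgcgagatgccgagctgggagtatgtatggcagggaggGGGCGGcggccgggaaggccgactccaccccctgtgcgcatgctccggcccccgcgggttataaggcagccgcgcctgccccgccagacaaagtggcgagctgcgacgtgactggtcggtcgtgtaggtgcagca

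The motifs searched were TATAAA (the TATA box) with CCAAT (the box of that name), GGGCGG (for Sp factors) and CACGTG (E-box). Further motifs were TGANTCA (for AP-1 factors), TGACGTCA (cyclic AMP response element), GAGACC (described as a shear stress response element), TGACNNNGC (core of the antioxidant response element) and CATTCC (for TEAD factors). The first Slc20a1 window held TATAAA once with CCAAT once, and both GGGCGG and CACGTG in a pair of places. CACGTG began at -175 and -22, counted from the annotated start, and TATAAA at -1. Of all 32851 windows of this length, 7.15% held CACGTG, 13.6% TATAAA, 37.4% CCAAT and 35.7% GGGCGG. The second Slc20a1 window, which starts inside the gene, held CATTCC at -230, -198 and -96, a motif found in 14.7% of the windows. It also held GGGCGG and TGACNNNGC, the latter found in 12.4%. All 4 genes had GGGCGG in a window, and CACGTG was found again in Slc16a1 only. The windows of Slc7a1 and Slc16a1 shared GAGACC, found in 16.4% of all windows, and TGACNNNGC, which overlapped CCAAT in Slc7a1 and CACGTG in Slc16a1. The first Slc20a1 window had 73% G and C and the second 52%, against a median of 52.7% over all windows. A match is a description of these letters and says nothing about binding.

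The values are log2 of the net fluorescence of a spot over the median of its block of 598 features, so 0 is the block median. From the design and dyes, each of 6 arrays was inferred to hold 2 samples of the same group, 1 in Cy5 and 1 in Cy3. The labels do not state which samples shared an array. Between 18434 and 23790 features had a value in a sample, the fewest in control replicate 4. The median net fluorescence of a sample ran from 243 to 868. Of 15 osteoblast genes, 9 were on the array and had values. Among them Sparc, Serpinh1 and Col1a2 had mean log2 signals of 5.48, 4.50 and 4.40 in control cells, Col1a1 1.66 and Alpl -1.01. The markers Runx2, Sp7, Ibsp, Spp1, Bglap and Postn were not analysed here. The summed linear signal of the osteoblast markers was 70.0 to 173 in control and 83.9 to 190 in shear samples. Markers of endothelial cells, with values for 5 of 8, summed to 4.38 to 7.14 in control and 5.75 to 7.75 in shear samples. Those of macrophages and osteoclasts, with values for 6 of 10, summed to 9.86 to 13.7 and 6.92 to 16.9. Muscle markers, with values for 4 of 8, summed to 10.5 to 21.3 in control and 2.62 to 24.8 in shear samples. Chondrocyte markers, with values for 4 of 8, summed to 3.80 to 14.1 and 5.52 to 12.01. Adipocyte markers, with values for 4 of 8, summed to 2.20 to 3.59 and 2.62 to 4.64. The lists differ in their number of genes with values, so their sums are not compared with each other.

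Slc20a1 signal lay below the block median in every control sample that had a value and far above it in every shear sample, on all 3 probes. Probe 3376 had log2 signals of -0.29, -0.29, -1.13, -0.34, -0.64 and -0.47 in control replicates 1 to 6. In shear replicates 1 to 6 it had 2.71, 3.43, 3.38, 3.06, 2.58 and 2.94. The groups did not overlap, and control replicate 3 was the lowest of the controls. The mean was -0.53 ± 0.32 (SD, n = 6) in control and 3.02 ± 0.35 (n = 6) in shear samples. The change was 3.55 ± 0.33 (SE) on the log2 scale, or 11.7-fold. In these bulk samples a change per cell and a change in the share of cells with the transcript cannot be told apart.

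Probe 11614 had log2 signals of -0.86, -0.58, -1.33 and -0.38 in control replicates 1 to 4 and no value in control replicates 5 and 6, which shared an array. In shear replicates 1 to 6 it had 2.01, 3.03, 2.54, 2.47, 3.18 and 3.36. Again the groups did not overlap, and control replicate 3 was the lowest. The mean went from -0.79 ± 0.41 (SD, n = 4) to 2.76 ± 0.51 (n = 6), a change of 3.55 ± 0.42 (SE), also 11.7-fold. This probe varied more within the groups than the other 2 Slc20a1 probes, at a pooled SD of 0.48, and its shear samples were highest on the array of replicates 5 and 6.

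Probe 21091 had log2 signals of -0.46, -0.20, -0.89, -0.23, -0.61 and -0.57 in control replicates 1 to 6. In shear replicates 1 to 6 it had 2.78, 3.68, 3.39, 2.96, 3.20 and 3.08. The lowest control was again replicate 3, and the lowest shear sample was replicate 1. The mean went from -0.49 ± 0.26 (SD, n = 6) to 3.18 ± 0.32 (n = 6), which is 3.67 ± 0.35 (SE), or 12.8-fold. This probe had a value in every sample and the highest mean, so it stands for Slc20a1 wherever 1 probe a gene is used.

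The gap between the highest control and the lowest shear sample was 2.87, 2.39 and 2.98 on the log2 scale for probes 3376, 11614 and 21091. In linear terms the nearest samples of the groups were 7.31, 5.25 and 7.86 times apart. The net fluorescence behind these values was 166 to 558 scanner units in the control samples over the 3 probes. In the shear samples it was 1625 to 9867 units. Among 21883 features the probes had the 7th, 6th and 4th highest change. The rule used this contrast, so nothing is read from the ranks.

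**Figure D1:**
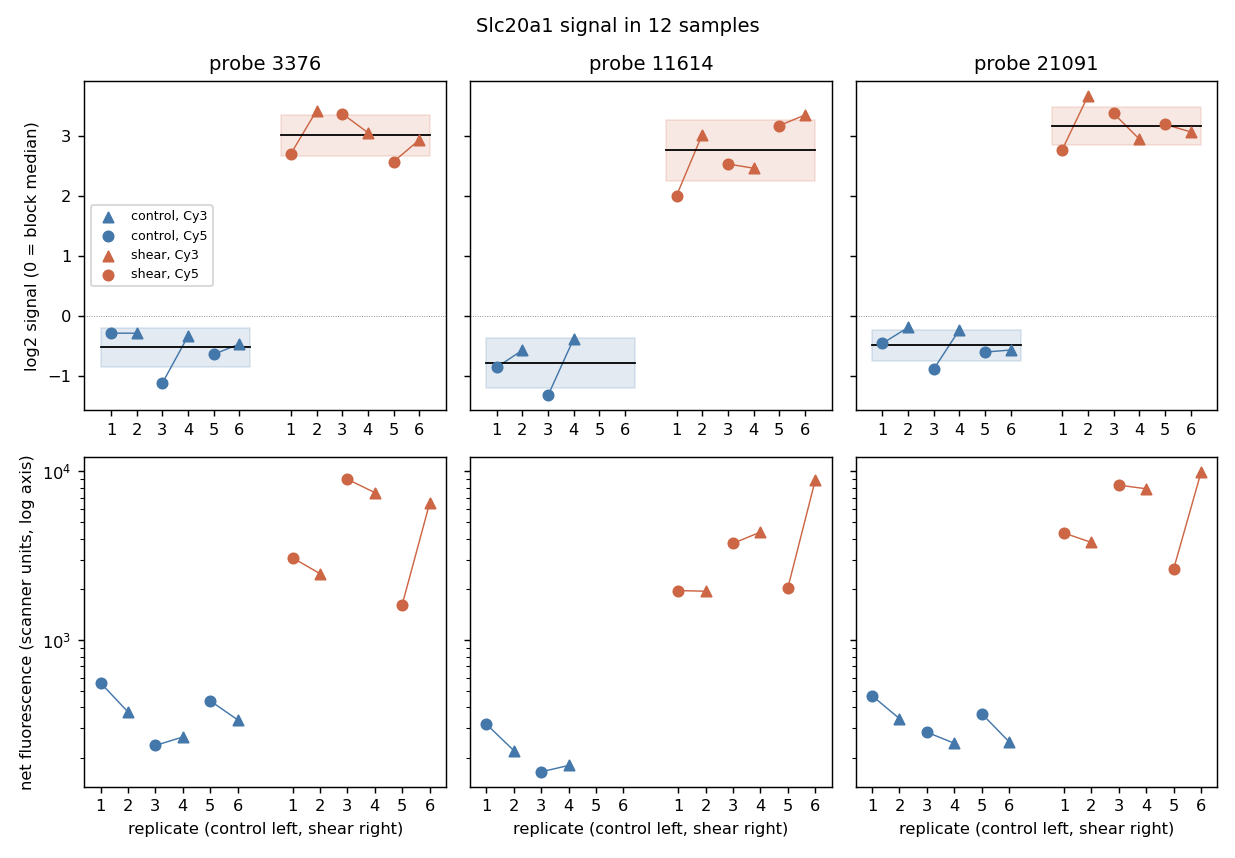
Slc20a1 signal in 6 control and 6 shear samples for each of its 3 probes. Upper panels give the log2 signal, with the mean as a black line and ± 1 SD shaded, and lower panels the net fluorescence in scanner units on a log axis. Thin lines join the Cy5 (circles) and Cy3 (triangles) samples of an array. On each probe all shear samples lie above all control samples, by at least 2.39 on the log2 scale, and probe 11614 has no value in control replicates 5 and 6.

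The change of Slc20a1 was alike in both dyes. Within Cy5 samples it was 3.58, 3.67 and 3.78 on the log2 scale for probes 3376, 11614 and 21091, and within Cy3 samples 3.51, 3.43 and 3.57. The dyes themselves differed by less than their spread between arrays. Cy5 minus Cy3 within an array was -0.29 ± 0.43 (SD, 6 arrays) for probe 3376, -0.47 ± 0.49 (5 arrays) for 11614 and -0.22 ± 0.50 (6 arrays) for 21091. Cy5 was the lower dye on 5 of 6, 4 of 5 and 4 of 6 arrays. Exact two-sided permutation tests by sign flips gave p = 0.156, 0.125 and 0.344, and 0.234, 0.234 and 0.344 after adjustment over the 3 probes. The smallest p that 6 arrays allow is 0.03125, and 5 arrays allow 0.0625, so probe 11614 could not have passed.

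Array by array, the Slc20a1 change was at least 3.05 on every probe, and it varied least on probe 21091. Between every control array and every shear array, the difference of array means was 3.05 to 3.96 for probe 3376 over 9 pairs. It was 3.22 to 4.13 for probe 11614 over 6 pairs and 3.47 to 3.82 for probe 21091 over 9 pairs. The control array of replicates 3 and 4, which had the fewest values, gave means of -0.73, -0.86 and -0.56 for the 3 probes. The array of control replicates 1 and 2 gave -0.29, -0.72 and -0.33. That of control replicates 5 and 6 gave -0.56 for probe 3376, no value for 11614 and -0.59, the lowest of the control arrays, for 21091. The features numbered within 5 places of each Slc20a1 probe did not share its change. Their median changes were -0.07, -0.22 and 0.29, and the highest of them was 0.77.

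The 3 Slc20a1 probes gave changes within 0.13 of each other on the log2 scale. Per sample, probe 3376 minus 11614 shifted by -0.02 between control and shear samples. For 3376 minus 21091 the shift was -0.13 and for 11614 minus 21091 it was -0.07. Exact two-sided permutation tests over samples gave p = 0.943, 0.340 and 0.762, each 0.943 after adjustment over the 3 pairs. A p of this size does not show that the probes respond alike. It compares 4 or 6 control with 6 shear samples, in which the pairs differed with an SD of 0.13 to 0.61. The tests also shuffled samples as if independent, although samples shared arrays in pairs, so they do not measure the spread between arrays.

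Among the other 60 solute carrier genes with at least 2 tested probes, the range of change between probes had a median of 0.48 and ran from 0.00493 to 3.15. In 33 of those 60 genes all probes changed with 1 sign. Over all 1005 genes with exactly 3 tested probes the median range was 0.51, and in 502 the probes had 1 sign. The range of 0.13 for Slc20a1 lay below both medians, but the gene was chosen by these changes, so nothing is read from that. Of these 60 genes, Slc2a1 and Slc7a1 were those with more than 1 called probe. Slc2a1 had changes of 2.08 and 1.96 and Slc7a1 of 1.94 and 2.06, ranges of 0.12 and 0.13 that are like that of Slc20a1.

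**Figure D2:**
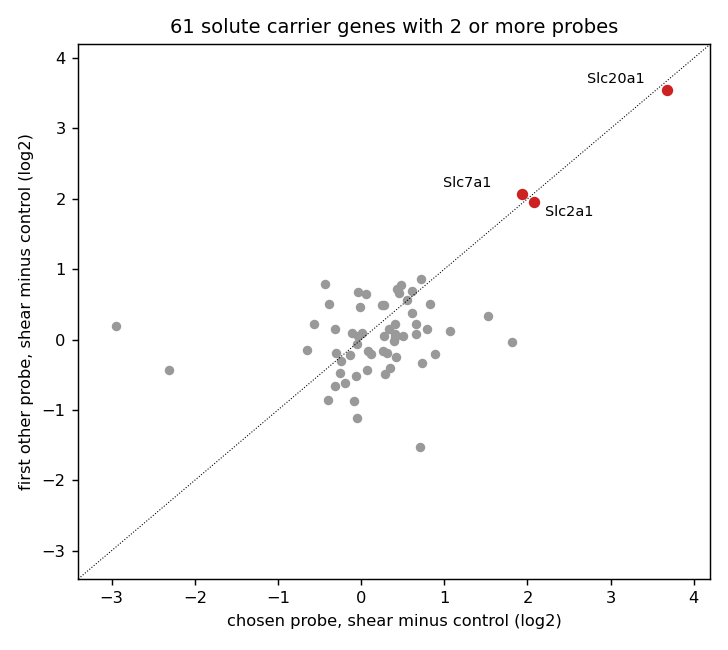
Change under shear (log2, shear minus control) of the chosen probe of each solute carrier gene on the x axis and of its first other probe on the y axis, for 61 genes with at least 2 tested probes. The dotted line marks equal changes. Slc20a1 lies at 3.67 and 3.55, above Slc2a1 and Slc7a1, while most genes (grey) lie near 0 on both axes.

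Set against other transporters, the change of Slc20a1 stood outside the range of the solute carriers tested. Of 183 solute carrier genes on the array, 161 entered the fit, having 4 or more values in both groups. As background, 1.42% of features were called higher, and in 6.61% of genes with 12 values all shear samples lay above all controls, as they did for Slc20a1. The rule used this contrast, so nothing is read from either. The changes of the other 160 had a median of 0.12 on the log2 scale, an interquartile range of -0.13 to 0.41 and an SD of 0.60. They ran from -2.95 to 2.08, with 99 above 0. The change of Slc20a1, 3.67, lay above them all, which is a description with no test. With any 1 sample or any 1 array left out, it was still the highest change of a solute carrier in the fit. It ranked 2 with each array averaged and with a value required in at least 2 samples of each group. The highest other change was then 4.89 and 5.17. The gene was chosen for its size, so nothing is read from these ranks.

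Limma with Benjamini-Hochberg adjustment over 21883 features called 3 of the other 160 solute carriers higher under shear and none lower. That is 1.88%, against 1.79% of all 8928 named genes called in either direction, so solute carriers were called about as often as genes in general. At an unadjusted p below 0.05 there were 20 carriers in either direction, against 1324 of 8927 named genes. Of all named genes 1.6% were called higher and 0.19% lower. In this fit the change of all features had a median of 0.10. After centring on the features measured in all 12 samples, or cyclic loess, that median was -0.02, and 67.5% or 70.0% of called features were higher in place of 87.6%. The Slc20a1 changes were then 3.35 to 3.54.

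Slc2a1, the glucose transporter GLUT1, came next to Slc20a1 in size. Its log2 signals in control replicates 1 to 6 were 1.13, 0.99, 0.62, 0.94, 1.02 and 0.73, and in shear replicates 3.08, 2.15, 3.23, 3.27, 3.18 and 2.97. The groups did not overlap, with shear replicate 2 standing below the other shear samples. The change was 2.08 ± 0.33 (SE), or 4.22-fold, at adjusted p = 0.00646 by limma with Benjamini-Hochberg adjustment. Its call did not hold without the array of shear replicates 5 and 6, at adjusted p = 0.0504, and over 30 alternatives the adjusted p ran from 6.38e-05 to that value.

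Slc7a1, the carrier CAT1 of arginine and other cationic amino acids, rose by 1.94 ± 0.32 (SE), or 3.83-fold, with adjusted p = 0.00857. Its control samples ran from -1.13 over a median of -0.56 to 0.24, and its shear samples from 1.00 over 1.52 to 1.88, with no overlap. Its call held in all 30 alternatives, with adjusted p between 2.77e-04 and 0.0497. Slc16a1, the lactate and pyruvate carrier MCT1, rose by 1.19 ± 0.26 (SE), or 2.28-fold, with adjusted p = 0.0365. Its control samples ran from -0.64 over -0.55 to -0.05 and its shear samples from 0.42 over 0.60 to 1.23. The call of Slc16a1 was lost in 15 of 30 alternatives, among them the fit on array means, where its adjusted p was 0.107. It was also lost without control replicate 2, 3, 5 or 6 and without shear replicate 1, 2, 3, 4 or 6.

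**Figure D3:**
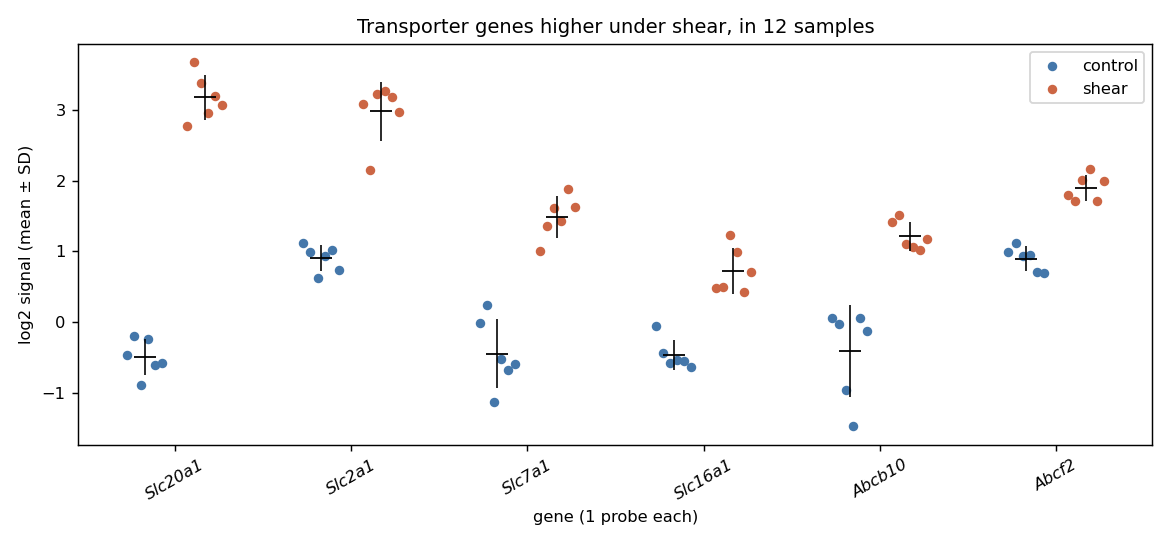
Log2 signal of Slc20a1, for which no call is given, and of 5 transporter genes called higher under shear, 1 probe a gene, in 6 control (blue) and 6 shear (orange) samples. Points are samples and black marks the mean ± SD. In each gene all shear samples lie above all control samples, with the widest gap, 2.98, in Slc20a1.

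Slc35b4, a nucleotide sugar carrier of the Golgi and endoplasmic reticulum, had the next highest change at 1.82 ± 0.61 (SE), and missed the threshold with adjusted p = 0.167. Its other probe gave -0.04. The lowest changes among solute carriers, outside the rule for naming and picked after their values were seen, were those of Slc16a13 (-2.95) and Slc8a1 (-2.31), neither of them called. Slc16a13 had values of 6.49 and 6.94 in control replicates 3 and 4, which share an array, and its other probe gave 0.20.

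**Figure D4:**
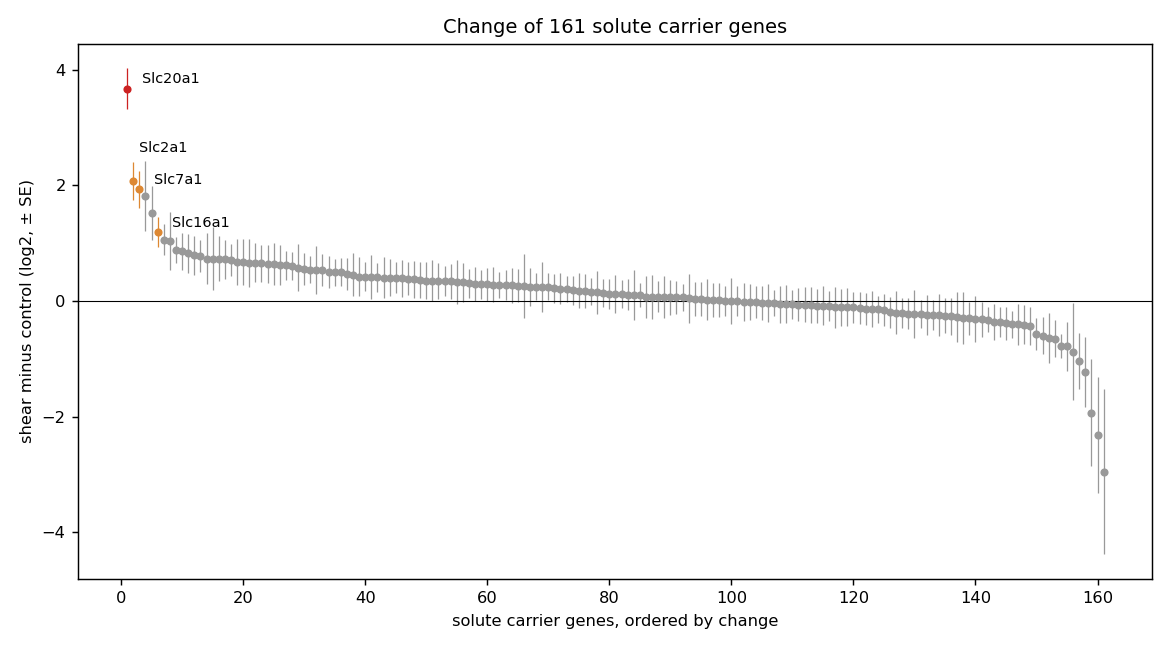
Change under shear (log2, shear minus control, with its SE as bars) of 161 solute carrier genes, 1 probe a gene, ordered by change. Slc20a1 (red) lies at 3.67, the called genes Slc2a1, Slc7a1 and Slc16a1 (orange) at 2.08, 1.94 and 1.19, and the other genes (grey) missed the threshold.

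Families of solute carriers with members coupled to sodium, as PiT1 is, were picked by gene symbol. Such a pattern can take in carriers without sodium coupling and miss others that have it. In these families 34 genes other than Slc20a1 were tested. None of them was called by limma, against 1.79% of all named genes, and their median change was 0.12. At an unadjusted p below 0.05 there were 4 of them, against 1324 of 8927 named genes. Among 24 ABC transporters, Abcb10 of the inner mitochondrial membrane rose by 1.63 ± 0.32 (SE, adjusted p = 0.0228) and Abcf2, a family member without membrane spans, by 1.00 ± 0.22 (SE, adjusted p = 0.0343). Those 2 calls are 8.33% of the list, against 1.79% of all named genes, and they were lost in 4 and 15 of 30 alternatives. The fit on array means lost both. No gene was called by limma among 18 P-type pump genes, 16 subunits of the V-type proton pump, 52 ion channel genes or 3 aquaporins. At an unadjusted p below 0.05 these lists had 4, 1, 3 and 0 genes, against 1324 of 8927 named genes. The highest changes in these lists were 1.68, 0.89, 0.95 and 0.35, all well below that of Slc20a1.

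Among genes of phosphate transport, 8 besides Slc20a1 were tested, and limma called none of them, against 1.79% of all named genes. At an unadjusted p below 0.05 there were 0 of these 8, against 1324 of 8927 named genes. Counts of 0 in a list this short say little. The median change of the 8 was 0.25. Of 18 genes on the list, 11 were on the array. Slc25a23 had no value, and Slc17a3 had too few, so neither was tested. The paralog Slc20a2, which encodes PiT2, had control samples from -0.28 over a median of 0.02 to 0.29 and shear samples from -0.28 over 0.30 to 0.83. These overlapped, and the change was 0.28 ± 0.26 (SE), with 0.05 ± 0.23 on its other probe. Slc20a1 thus moved by 3.67 and its paralog by at most 0.28 on these probes, a contrast given with no test because the first was chosen for its size.

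Xpr1, the phosphate exporter, changed by -0.23 ± 0.31 (SE), with control samples from -1.81 to -0.32 and shear samples from -1.33 to -0.71. The mitochondrial phosphate carrier Slc25a3 changed by 0.47 ± 0.28 (SE) and by 0.78 on its other probe. The sodium-phosphate cotransporters of epithelia, Slc34a2 and Slc34a3, gave -0.32 and 0.40. Another probe of Slc34a2 gave -0.66, and a further probe, with too few values for the fit, had means of -1.42 (n = 3) in control and -1.06 (n = 4) in shear samples. Of the sugar phosphate exchangers, Slc37a3 gave -0.60 and Slc37a4, which moves glucose 6-phosphate, 0.33. Slc17a2, of the family first described as type I phosphate transporters, gave 0.22. The adjusted p of these 8 genes lay between 0.427 and 0.794 (limma, Benjamini-Hochberg).

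**Figure D5:**
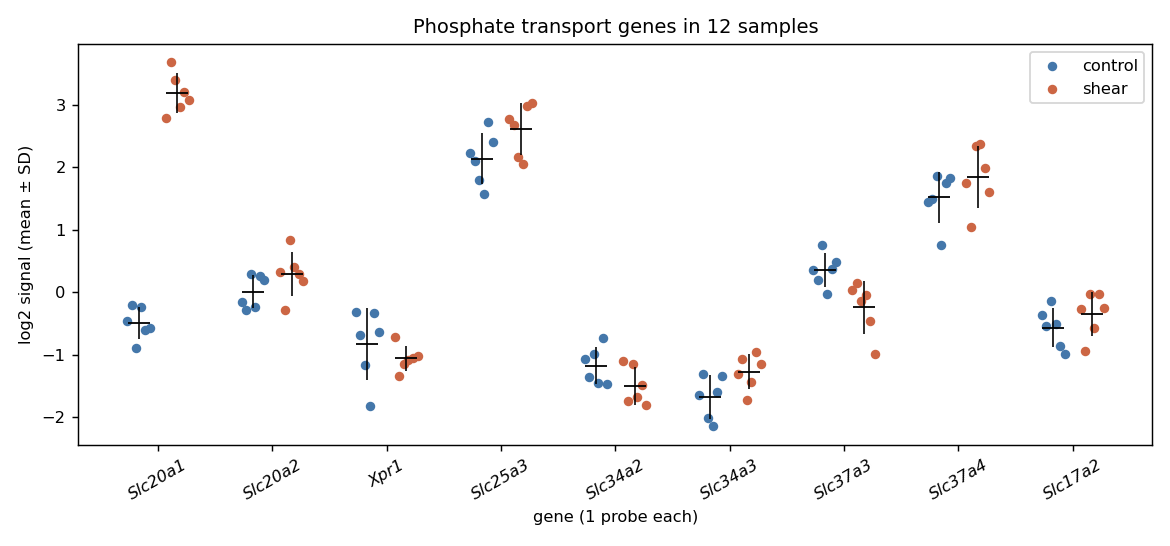
Log2 signal of 9 phosphate transport genes, 1 probe a gene, in 6 control (blue) and 6 shear (orange) samples. Points are samples and black marks the mean ± SD. The Slc20a1 groups lie apart, while the other 8 genes overlap between control and shear.

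PiT1 belongs with several carriers that retroviruses use to enter cells. Besides Slc20a1, 6 such genes were tested and Slc7a1 was called, which is 16.7% of them against 1.79% of all named genes, with a median change of 0.51. Flvcr1, described as a heme exporter, gave 0.68 ± 0.27 (SE) and its relative Flvcr2 0.55 ± 0.37. Slc1a5, the glutamine carrier ASCT2, gave 0.46 ± 0.37. None of these 3 was called by limma, with adjusted p of 0.249, 0.543 and 0.624. The values of Slc20a2 and Xpr1 on this list are given above.

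None of the 10 tested genes that set or use the sodium gradient was called, against 1.79% of all named genes. At an unadjusted p below 0.05 there were 3 of them, against 1324 of 8927 named genes. The sodium pump subunits Atp1b1, Atp1b2 and Atp1b3 changed by -0.38, -0.25 and 0.46. Its regulators Fxyd3, Fxyd5 and Fxyd6 changed by 0.16, 0.76 and 0.03. The Fxyd5 groups did not overlap, with shear samples higher, at an adjusted p of 0.169 (limma). Among all named genes with 12 values, 6.61% had groups apart in that direction and 1.03% in the other. The scaffold genes Slc9a3r1 and Slc9a3r2, which bind sodium exchangers and phosphate cotransporters, gave -0.84 and -1.03. The 6 shear samples of Slc9a3r1 lay below its 5 control values, at an adjusted p of 0.167 (limma). With a control value missing, Slc9a3r1 falls outside that count. The kinase gene Wnk1 gave 0.44. The sodium-calcium exchanger Slc8a1 gave -2.31 ± 1.00 (SE), but its control values were 2.86 and 5.29 in replicates 3 and 4 and at most -0.31 in the other 4 controls. Its other probe gave -0.44.

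Of 11 tested genes of pyrophosphate and mineral, Lox was called, which is 9.09% of them against 1.79% of all named genes, and the median change was 0.17. Lox encodes lysyl oxidase, which crosslinks collagen, and rose by 2.10 ± 0.41 (SE, adjusted p = 0.0219), from a mean of 1.99 to 4.10. Its call was lost in 4 of 30 alternatives, which left out the array of control replicates 5 and 6 or any 1 of the shear arrays, with adjusted p up to 0.126. Ank, the progressive ankylosis gene linked to pyrophosphate export, gave 1.03 ± 0.64 and was not called. The phosphate-regulating hormone gene Stc1 gave 0.44 and Fam20c, a kinase of secreted proteins, 0.17. Anxa2 gave 0.33, the calcification inhibitor Mgp 0.30, Col1a1 -0.25 and Sparc 0.11. The remaining 3, Alpl, Anxa5 and Col1a2, lay between 0.05 and 0.06. Alpl, the tissue-nonspecific alkaline phosphatase that releases phosphate outside the cell, spanned -1.78 to 0.55 in control and -1.89 to -0.23 in shear samples.

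No gene was called among 11 tested growth factor and receptor genes of pathways known to act on phosphate uptake in bone cells. Of these, 0 had an unadjusted p below 0.05. Of all named genes 1.79% were called and 1324 of 8927 had such a p, so counts of 0 in a list this short say little. The changes of the 11 genes ran from -1.41 for Fgfr2 to 0.83 for Pdgfa, with a median of -0.16. Bmpr2 gave 0.73, Tgfbr1 0.54, Bmpr1a 0.50 and Fgfr1 0.26, while Pdgfrb gave -0.33 and Pdgfra -0.78.

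Over the 12 samples, the 6 named genes most like Slc20a1 had Pearson correlations of 0.975 to 0.985 with the mean of its probes 3376 and 21091, among 7776 genes. They were Rassf1, Glrx5, Eif1a, Pvr, Nuak2 and Sntb2. This likeness is dominated by the difference between the groups, since all 12 samples share it. Sntb2, which encodes a syntrophin, was the nearest in size, with a change of 3.59 from -0.17 ± 0.39 (SD) to 3.42 ± 0.63 (n = 6 each). Pvr, the poliovirus receptor of cell adhesion, changed by 2.21, and Rassf1 by 1.87. The kinase gene Nuak2 changed by 1.57, Glrx5, needed for iron-sulphur clusters, by 1.31, and the initiation factor Eif1a by 1.20. Of solute carriers, Slc7a1, Slc2a1 and Slc16a1 were the most like Slc20a1, at 0.953, 0.941 and 0.931.

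Within the groups the genes most like Slc20a1 were others. With group means removed, Smg1, Dsn1, Mki67, Klf4, Hspa9 and Klf10 correlated with Slc20a1 at 0.762 to 0.848 over 12 samples. These were the highest of 7776 genes compared, and the highest of so many can be large with no link to Slc20a1. No test was run. Samples on 1 array share that array, and none of these 6 genes was called. On probes 3376 and 21091 Slc20a1 was the lowest control in replicate 3 and the highest shear sample in replicate 2. The same held for Klf10 (-0.89 and 1.34), Hspa9 (2.40 and 4.32), Dsn1 (-0.70 and -0.09) and Mki67 (0.66 and 2.68). These genes were picked by their likeness over the same samples, which favours such matches, so nothing more is read from them. Of these genes, Dsn1 and Mki67 had negative changes, -0.28 and -0.81. Smg1 and Klf4 were also highest in shear replicate 2, but their lowest control was replicate 5. Slc7a1 had a correlation of 0.55 and Slc2a1 of -0.23 on this measure.

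The measured genes nearest to Slc20a1 on chromosome 2 did not share its size of change. None was called, against 1.79% of all named genes. They were the 4th, 5th and 7th annotated genes on the side of lower coordinates and the 24th, 26th and 28th on the other. Genes closer to Slc20a1 were not tested, so nothing is known here of their change. On the side of lower coordinates Chchd5, Polr1b and Ttl changed by 0.03, 0.88 ± 0.31 (SE) and 0.54. On the other side AU015228, Snrpb and Nop56 changed by 0.07, 0.79 and 0.14. Their adjusted p was at least 0.187 (limma, Benjamini-Hochberg). Snrpb had no value in control replicates 1 and 2. Of 5 tested reference genes none was called by limma, and the median change was 0.48. At an unadjusted p below 0.05 there was 1 of them, against 1324 of 8927 named genes. Gapdh changed by -0.26, Actb by 0.53 and Gja1 by -0.06. Hprt, picked after its value was seen, had the highest change of the 5 at 0.96 ± 0.27 (SE, adjusted p = 0.0917 by limma). Its groups did not overlap, as in 6.61% of named genes with 12 values and shear samples higher.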

How the data were processed

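Total RNA (50 ug a sample, per the labels' protocols) was copied into Cy5- or Cy3-labelled cDNA and hybridised to spotted arrays. The authors deposited log2 values. They came out as whole-number net fluorescence over a block median (598 features a block, 100% whole within 0.002), which settles the log base. How background was corrected and which spots were left out is not given in the sources used here. Such values hide any shift shared by all genes. The number of arrays limits the precision. Each array was inferred, from the design and dyes, to hold a pair of neighbouring replicates of 1 group (1 with 2, 3 with 4, 5 with 6). Samples correlated at 0.954 to 0.981 inside such a pair, and at 0.873 to 0.915 across arrays of a group.

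In limma 3.58.1 (R 4.3.3, with the data.table package at version 1.17.8) every probe measured in 4 or more samples of both groups was a feature. Group and dye were fixed terms and array a random block (correlation 0.727). Each array held 1 group, so the groups rest on 3 arrays each while degrees of freedom count 12 samples, and p-values can be too small. P-values were adjusted over 21883 features by Benjamini-Hochberg, with a threshold of 0.05. A gene was represented by its probe with most values, then the highest mean. Python 3.11.15, numpy 2.4.6, pandas 2.3.3, scipy 1.17.1 and matplotlib 3.10.9 were used for the rest. Of 28704 features, the platform annotation gave 1 symbol for 18511, several for 937 and none for 9256. Symbols of 18267 were kept or updated through the Entrez number, and probes with several were not named. Promoter windows are from RefSeq on GRCm38.p6. On simulated data with the spread of this comparison, a log2 change of 1 was recovered in 10% of 100 features and a change of 2 in 77% of 100. There were 4 false among 91 calls. The simulated noise was normal with the same array correlation for every feature, as the fit assumes. It therefore cannot show whether the p-values of the real data are too small.

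The members, lists and tests were chosen with earlier results of these data known. The rule named every tested gene of the phosphate, retrovirus receptor and sodium lists, and up to 8 by smallest p of the mineral and growth factor lists. Of solute carriers it named those called and the 3 nearest to Slc20a1 in size, of other transporter classes up to 4 called. It added the 6 genes most like Slc20a1 by each measure, the 3 nearest measured genes on each side, and Gapdh, Actb and Gja1. Alternatives changed the unit of replication, block, dye term, probes, centring, normalization, filters and samples. Deviations of same-numbered control and shear samples correlated at -0.09 to 0.12, so the numbers were not taken to pair samples.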

Additional observations from a re-analysis of the deposited data

Results flagged for a closer look

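In 134 groups of 4 to 6 values of the named genes and the Slc20a1 probes, 6 had a sample far from the others by Dixon's 95% criterion, and chance flags about 1 in 20 groups. No group of Slc20a1 values was among them. Slc2a1 was low in shear replicate 2, at 2.15 on the log2 scale with the next sample at 2.97. Slc16a1 was high in control replicate 1 (-0.054, next -0.43). Control replicate 4 was low in Slc1a5 (-0.71, next 0.40), in Col1a1 (-0.037, next 1.63) and in Tgfbr1 (-1.31, next -0.40). Polr1b, among the measured genes nearest to Slc20a1, was low in shear replicate 2 (0.10, next 0.93). Probe 24418 of the amino acid carrier gene Slc43a1 had no value in any control sample and a value in all 6 shear samples, with a mean of -0.84 ± 0.24 (SD), so it entered no comparison. The other probe of Slc43a1 had values in 6 control and 4 shear samples, with means of -1.55 and -1.84.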

How the results depend on the processing

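The changes of the Slc20a1 probes kept their direction and moved by less than the spread between replicates in every alternative run: 3.36 to 3.67 for probe 3376, 3.30 to 3.68 for 11614 and 3.48 to 3.79 for 21091. Of the differences between probes in their change, that of 3376 and 11614 turned sign without control replicate 1 (0.08), shear replicate 5 (0.15) or shear replicate 6 (0.11). That of 11614 and 21091 turned without shear replicate 3 (0.015). Leave-one-out ranges were -0.14 to 0.15 and -0.21 to 0.015, and none of these differences passed a test. The count of called features, 354, became 96 with each array averaged, 2664 with no array block, 558 with no dye term, 232 with 1 probe a gene and 235 with quantile normalization. Leaving out 1 sample gave 180 to 368. Without an array of controls (replicates 1 and 2, 3 and 4, 5 and 6) it was 194, 234 and 143, and without an array of shear samples 210, 75 and 108. With the replicate block in place of dye and array it was 2240. The count of other solute carriers called, 3, became 16 with no array block, 13 with the replicate block, 5 with cyclic loess and 1 without the array of shear replicates 5 and 6. The cause was not tested, beyond the fewer samples or features by construction. Slc20a1 was the highest solute carrier in all but the settings that admit Slc7a11. Net fluorescence of 166 to 558 units limits the Slc20a1 control values.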

Other observations

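Slc7a11, the light chain of the cystine-glutamate exchanger, was outside the filter on values and was picked after its values were seen. It had a value in 2 control samples only, -3.96 in replicate 1 and -3.60 in replicate 5. In shear replicates 1 to 6 its log2 signals were 1.06, 0.10, 2.09, 1.04, 1.03 and 1.35. The net fluorescence behind them was 46 and 49 units in the controls and 387 to 3968 units in the shear samples. With a value required in at least 2 samples of each group its change was 5.17, and with each array averaged it was 4.89, above that of Slc20a1 in both. Its size rests on those 2 dim control spots.

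Among features next to each other in number, probes 11759 (Slc4a3) and 11760 (Slc8a1) both had high values on the array of control replicates 3 and 4, at 5.12 for Slc4a3 in replicate 3 and 5.29 for Slc8a1 in replicate 4. Probe 11614 of Slc20a1 lies in the same block of features, and its values in those samples were -1.33 and -0.38.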
